A study of Mus musculus with 6 samples.

Results

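De novo lipogenesis is the making of fatty acids from acetyl-CoA in the cytosol. The expression of 10 named mouse genes that carry it out or drive it was followed through RNA-seq of mammary glands engrafted with WT or Adamts18-deficient epithelium. The rows of the deposited count table were taken by symbol (Acly, Me1, Acaca, Fasn, Elovl6, Scd1, Scd2, Srebf1, Mlxipl and Thrsp), and all 10 were present among 34590 symbols. All 10 passed the filter on low counts, and 0 of them had a count of 0 in any library. None differed between the genotypes by the thresholds used. Fasn and Scd1 stood among the most abundant transcripts of these libraries. Acly, Me1, Elovl6, Scd2 and Scd1 varied more between pairs than between the 2 grafts of a host. For Mlxipl the 2 spans were close (0.36 against 0.34 on the log2 scale).

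The 6 libraries were 3 pairs of contralateral inguinal glands (gland number 4). In each host mouse the left gland was engrafted with WT.EGFP+ epithelium and the right gland with Adamts18-/-.EGFP+ epithelium, which means that the genotype cannot be told apart from the side of the body. The mutant allele lacks exons of the protease's catalytic site, both epithelia carried EGFP under a chicken β-actin promoter, and the mutant and EGFP lines were kept on a C57BL/6JOlaHsd background. Grafts in the study were placed in WT females at the age of 3 weeks, after the fat pad had been cleared of its own epithelium, so the stroma of every gland was that of the host, fat included. The donors differed between the pairs by the study's description, so a difference between pairs cannot be assigned to host or donor. The WT and mutant grafts of a pair came from donors of different genotype. Within a pair the genotype thus cannot be told apart from the donor animal. The age of the hosts at harvest was not given for these libraries. The labels describe sorted GFP+ mammary epithelial cells whereas the study's text describes engrafted glands. Total counts ranged from 53875123 to 71595924 a library, and the 10 genes together took 2.11% to 3.46% of them. Adamts18 itself, the targeted gene, had 252, 608 and 383 counts in the WT glands of pairs 1, 2 and 3 and 144, 295 and 202 in their Adamts18-/- partners. It was lower in the mutant gland of all 3 pairs (log2 fold change -0.83, SE 0.19, unadjusted p = 0.00922, adjusted p = 0.987, edgeR).

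In this pathway ATP-citrate lyase turns citrate exported from mitochondria into acetyl-CoA, acetyl-CoA carboxylase turns that into malonyl-CoA, and fatty acid synthase builds palmitate from both with reducing power from NADPH. Elongases and stearoyl-CoA desaturases then lengthen and desaturate the product. The genes are switched on together by the transcription factors SREBP-1 and ChREBP, which relay insulin and carbohydrate supply. In the mammary gland the pathway is a property of the adipocytes of the fat pad and, during lactation, of the alveolar cells that make milk fat.

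RefSeq promoter windows of the GRCm38.p6 build, from 250 bases before to 50 after a start, were found for 8 of the 10 genes, with 12 windows in all. Motifs of 4 kinds were searched on both strands. They were the sterol regulatory element (TCACNCCAC), a single E-box (CACGTG), the CCAAT box, and a direct repeat of half-sites for the nuclear receptor LXR. The CCAAT box lay in 7 of the 12 windows, of 6 genes, against 37.4% of 32851 windows of the same length over the genome. The E-box lay in 1 window, of Mlxipl, against 7.15% of all windows, and the sterol regulatory element in 1 window, also of Mlxipl, against 1.24%. The LXR repeat lay in 0 of the 12 windows, against 0.0152% of all windows. The following stretches upstream of the start are shown because they hold the 3 motifs that were found, in Fasn, the most abundant enzyme of chain synthesis, and in both windows of Mlxipl, the gene whose level went against those of the other genes most often. Capitals mark the matches, on either strand, and the adjoining CCAAT matches of Fasn overlap by 2 bases on opposite strands. A match of letters is a description and not a shown binding site.
Fasn, minus strand, chr11:120824592-120824647: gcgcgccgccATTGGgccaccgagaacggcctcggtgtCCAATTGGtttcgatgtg
Mlxipl, plus strand, chr5:135106745-135106773: atcagtggttTCACACCACgctcactggt
Mlxipl, second window, plus strand, chr5:135089707-135089807: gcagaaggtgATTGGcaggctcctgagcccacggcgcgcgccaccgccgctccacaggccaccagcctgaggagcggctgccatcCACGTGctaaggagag

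Levels are given as counts per 1000000 counted reads (CPM), scaled between libraries by the TMM method, and in order of pairs 1, 2 and 3. Fasn, the multifunctional enzyme that assembles palmitate, had 11250, 7956 and 9760 CPM in WT glands and 10199, 9842 and 8282 CPM in Adamts18-/- glands. The groups overlapped, with the WT gland of pair 2 the lowest and the WT gland of pair 1 the highest of all 6. Its mean CPM ranked 3 among the 17345 genes tested. Acaca, which encodes the carboxylase that commits acetyl-CoA to fatty acids, had 1924, 1454 and 1707 CPM in WT glands and 1715, 1764 and 1558 CPM in mutant glands. It followed the same order of libraries as Fasn with 1 exchange (Pearson r = 0.974 over 6 libraries, a description), and its highest library was 1.32 times its lowest.

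Acly, which supplies cytosolic acetyl-CoA, had 1350, 944 and 2687 CPM in WT glands and 1261, 1087 and 2236 CPM in Adamts18-/- glands. Me1, the cytosolic malic enzyme and a source of NADPH, had 1019, 747 and 2534 CPM in WT glands and 1019, 835 and 2050 CPM in mutant glands. For both supply enzymes the 2 glands of pair 3 lay above the other 4, and the genotypes overlapped. Me1 spanned the widest range of the 10 genes, its highest library at 3.39 times its lowest.

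Scd1, the main stearoyl-CoA desaturase of adipose tissue, was the most abundant of the 10 genes. It had 14545, 7872 and 13726 CPM in WT glands and 12999, 9036 and 11597 CPM in Adamts18-/- glands, and only 1 gene of the table had a higher mean CPM. Both glands of pair 2 were the lowest, below the other 4. Fasn and Scd1 together made up 70.8% to 79.9% of the summed CPM of the 10 genes. Its paralog Scd2 had 318, 211 and 448 CPM in WT glands and 284, 243 and 365 CPM in mutant glands. Elovl6, which extends palmitate to stearate, had 251.4, 168 and 398 CPM in WT glands and 248, 186 and 345 CPM in mutant glands. For Scd2 and Elovl6, as for Acly and Me1, pair 3 was above the other 4 libraries and pair 2 was lowest in both genotypes. The count of Scd1 was 45.8, 37.3 and 30.6 times that of Scd2 in WT glands and 45.8, 37.1 and 31.8 times in the contralateral glands, so the balance of the paralogs differed between hosts by more than between the glands of a host. Any reads shared by the desaturase paralogs could be assigned to either, since the treatment of such reads is not given in the sources used here. Scd3 and Scd4, the other mouse paralogs, stayed below 1 CPM in all 6 libraries.

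Of the regulators, Srebf1 (SREBP-1) had 431, 409.9 and 409.8 CPM in WT glands and 413, 445 and 327 CPM in Adamts18-/- glands. Mlxipl (ChREBP) had 161, 189 and 165 CPM in WT glands and 148, 189 and 131 CPM in mutant glands. Both had their lowest library in the mutant gland of pair 3, where Acly and Me1 were second highest. Thrsp, a small nuclear protein that promotes lipogenesis, had 1050, 927 and 1336 CPM in WT glands and 957, 947 and 1007 CPM in mutant glands. Its WT glands spread over a wider range than its mutant glands, which lay within that range.

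**Figure D1:**
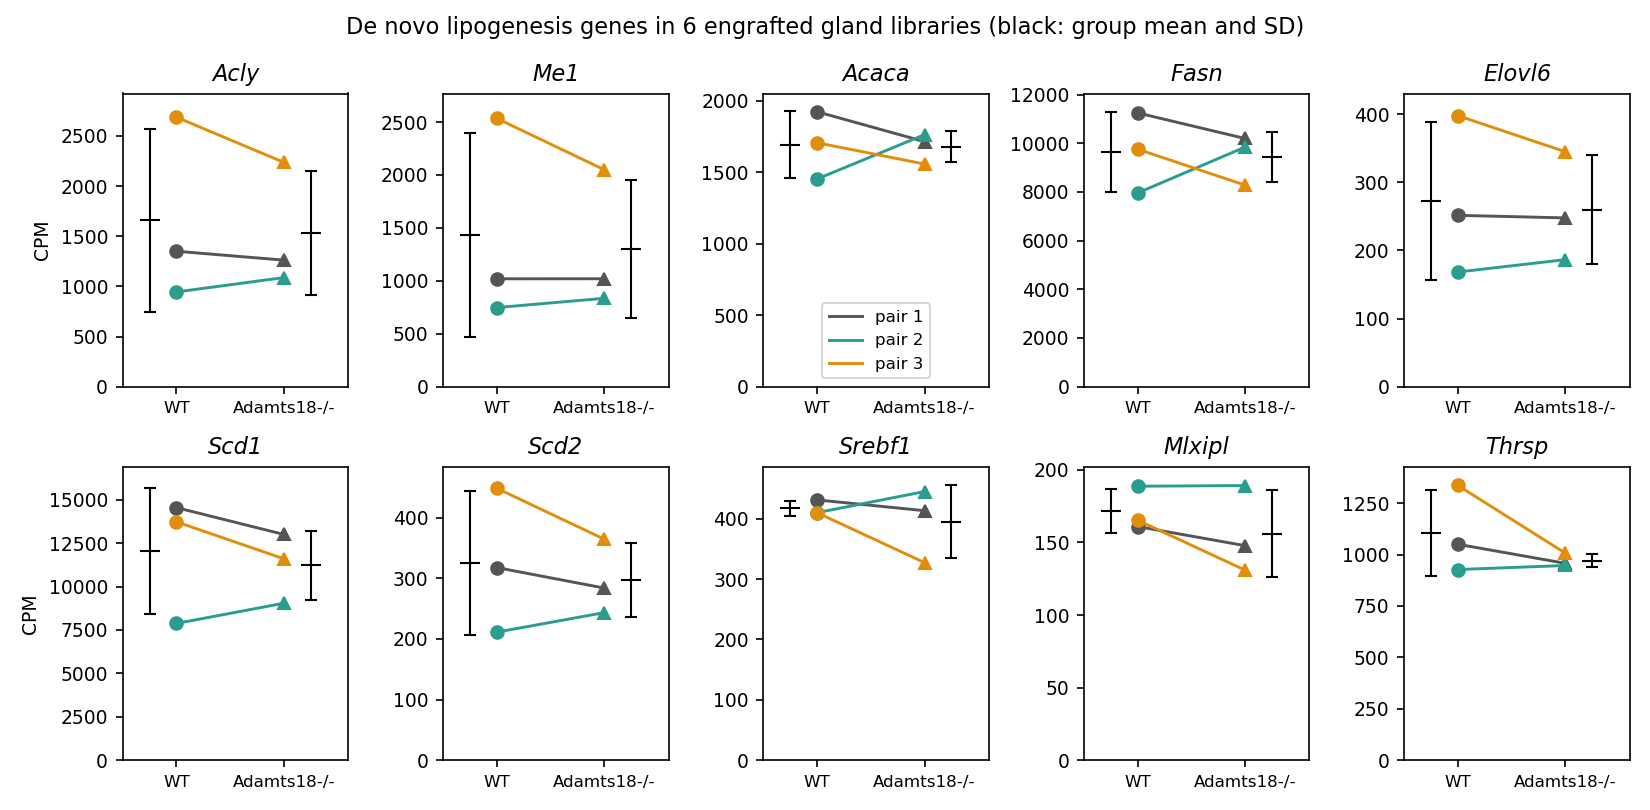
Level of each gene in CPM (vertical axes, each from 0) in WT (circles) and Adamts18-/- glands (triangles), with a line joining the contralateral glands of a host and the group mean with its SD (n = 3) in black. The genotypes overlapped for every gene, and the pair 3 glands lay above the other 4 for Acly, Me1, Elovl6 and Scd2.

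Per kilobase of annotated exon, the order of mean levels over the 6 libraries was Scd1 (2377 CPM per kb ± 546, SD, n = 6), Fasn (872 ± 113), Thrsp (474 ± 69.9), Me1 (355 ± 192), Acly (302 ± 133), Acaca (98.8 ± 9.60), Srebf1 (72.1 ± 7.29), Scd2 (57.0 ± 15.8), Elovl6 (41.4 ± 13.9) and Mlxipl (29.6 ± 4.13). Scd1 and Fasn were each separated from the next gene in every library. The ranges of 5 neighbouring pairs overlapped, those from Thrsp to Me1 to Acly and those from Srebf1 through Scd2 and Elovl6 to Mlxipl. Thrsp exceeded Me1 in the 4 libraries of pairs 1 and 2 and was below it in the 2 of pair 3. Me1 exceeded Acly per kilobase in all 6 libraries. The lengths are unions of GENCODE M21 exons and stand for the isoforms only roughly.

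The comparison of the genotypes asked whether an epithelium without Adamts18 changed these genes in the engrafted gland. At a fold change under 0.8 with an unadjusted p under 0.05, 0 of the 10 genes were called lower in Adamts18-/- glands, where 1.84% of all genes tested were. Called higher, at the reciprocal of that fold, were 0 of the 10, against 1.17% of all genes. At adjusted p under 0.05 edgeR called 0 of the 10 and 0 of all 17345 genes (0%), and 0 of the 10 reached an unadjusted p under 0.05, as 670 of all genes did. Unadjusted p-values ran from 0.174 for Mlxipl to 0.967 for Acaca, with adjusted p-values of at least 0.987. A missed threshold does not show equal levels: the 95% intervals, which rest on 3 pairs, reached below a fold of 0.8 for 9 genes and above its reciprocal for 5.

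All 10 fitted log2 fold changes were negative and small. Their median was -0.061, against 0.00065 for all genes tested, of which 49.8% were negative. The fitted change was -0.17 (SE 0.13, 95% interval -0.52 to 0.18) for Thrsp and -0.15 (SE 0.095, -0.40 to 0.097) for Mlxipl, the values furthest from 0. Without pair 3 these were -0.044 and -0.052, and without pair 2 they were -0.27 and -0.23. For the most abundant genes it was -0.069 (SE 0.19, -0.56 to 0.42) for Scd1 and -0.024 (SE 0.19, -0.53 to 0.48) for Fasn. The remaining 6 lay between -0.089 for Srebf1 and -0.0063 for Acaca. Read as folds, the widest intervals were those of Fasn, 0.694 to 1.39, and Scd1, 0.680 to 1.34, and the lower bound of Elovl6 was 0.814.

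The sign of the difference changed with the host. In pair 1 the mutant gland was lower for 9 of the 10 genes, with Me1 level at 0.00053 on the log2 scale. In pair 2 it was higher for all 10, by 0.0035 for Mlxipl to 0.31 for Fasn, with a median of 0.18. In pair 3 it was lower for all 10, with differences from -0.41 for Thrsp to -0.13 for Acaca and a median of -0.28. The medians of all genes tested lay between -0.0098 and -0.0052 in the 3 pairs. No gene of the 10 was lower in all 3 pairs (0 of 10, where 12.7% of all genes were) or higher in all 3. Without pair 3 the fitted change was positive for 8 of the 10 genes, with a median of 0.049, and without pair 2 it was negative for all 10, with a median of -0.19; 0 genes were called in either case.

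**Figure D2:**
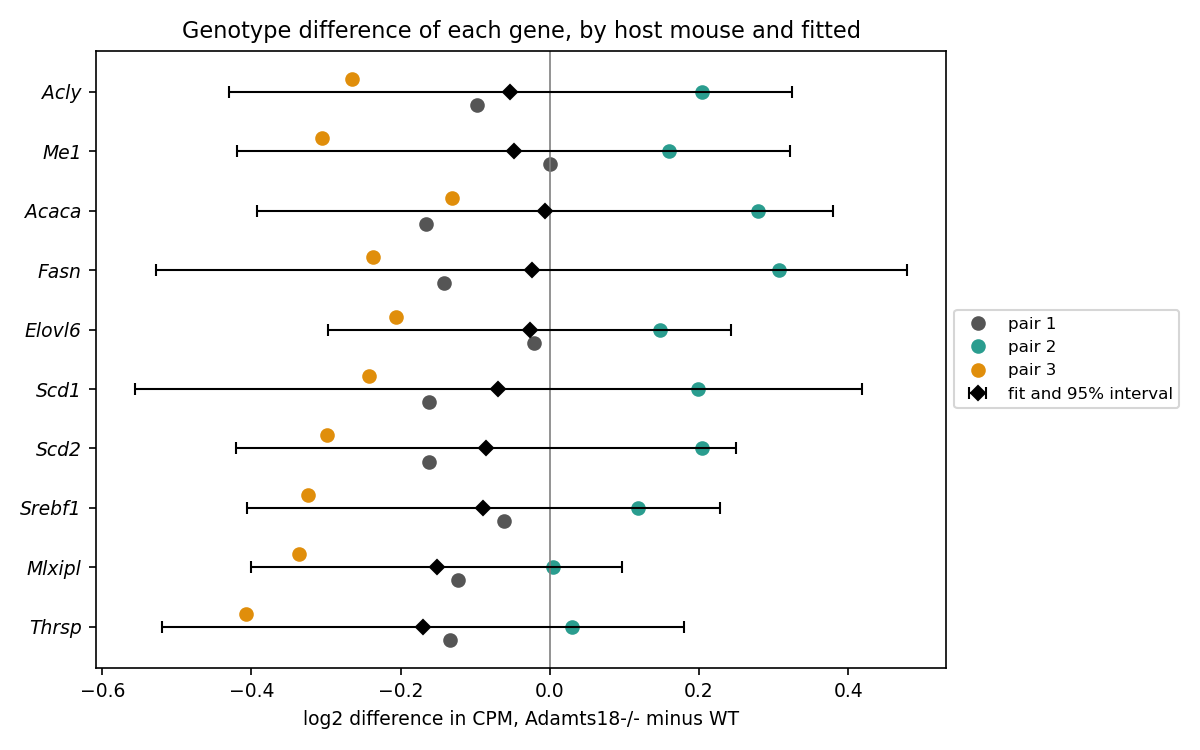
Log2 difference in CPM between the Adamts18-/- and the WT gland (horizontal axis) of each gene in pair 1, 2 and 3 (coloured points) and as fitted with the host as a block (black diamonds, 95% interval). All points of pair 2 lie at or right of 0, all points of pair 3 lie left of 0, and every interval spans 0.

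The summed markers of adipocytes and of Schwann cells had the signs of these differences. The sums of the other marker lists did not match them in all 3 pairs. The 12 adipocyte markers summed to 34941, 33081 and 17235 CPM in WT glands and 31431, 36178 and 13580 CPM in mutant glands, which is a log2 difference of -0.15, 0.13 and -0.34 in pairs 1, 2 and 3. The sum of the 10 lipogenesis genes differed by -0.14, 0.24 and -0.25 in the same pairs, so both sums had the same sign in each pair. The Schwann cell markers did so too, with 752, 528 and 522 CPM in WT glands and 568, 680.1 and 321 CPM in mutant glands. Within that list Sox10 went the other way in pairs 1 and 2, by 0.11 and -0.80 on the log2 scale. Among the adipocyte markers Fabp4 did so in pair 2, by -0.069. Fibroblast markers summed to 10754, 8109 and 8711 CPM in WT glands and 10990, 10970 and 10286 CPM in mutant glands, a higher sum in each pair. The single fibroblast markers disagreed in pair 3. There Col3a1, Col1a1 and Col1a2 were higher by 0.81, 0.24 and 0.15 on the log2 scale. Dcn, Lum, Pdgfra and Fbln1 differed by -0.84, -0.55, -0.50 and -1.56. In pair 1 Col3a1, Col1a1 and Fbln1 were also lower, by -0.0047, -0.041 and -0.16. Endothelial markers had a lower sum in each pair, with 884, 935 and 678 CPM in WT glands and 760, 929 and 579 CPM in mutant glands. Of these, Kdr and Cdh5 were higher in pair 2 by 0.14 and 0.020, and Pecam1 was higher in pair 3 by 0.21. None of the 12 adipocyte markers was called between the genotypes and all 12 fitted changes were negative (median -0.11). In bulk RNA fewer cells of a type and less RNA per cell cannot be told apart, and the part of adipocytes or Schwann cells in the genotype differences was not tested.

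Measured against a labelled sort of epithelial cells, the adipocyte list was well above the epithelial list in every library. The 18 pan-epithelial markers summed to 1637 to 2413 CPM in WT glands and 1222 to 1676 CPM in mutant glands. Carbonic anhydrase 3 (Car3) and adipsin (Cfd), the most abundant adipocyte markers, had mean CPM of 7661 and 5941, and the least abundant, Pparg and Lep, had 143 and 298. Krt19 and Krt18, the most abundant epithelial markers, had 365 and 302, and Cldn7, among the least abundant, had 18.3. Of the epithelial markers 5 were called lower in mutant glands (Krt19, Krt18, Krt8, Krt7 and Spint1) and all 18 fitted changes were negative, with a median of -0.38. Of the 8 myoepithelial markers 7 were called lower (Acta2, Myh11, Mylk, Oxtr, Krt14, Cnn1 and Trp63), of the 7 hormone-sensing luminal markers 3 (Prlr, Foxa1 and Cited1) and of the 11 secretory luminal markers tested 2 (Elf5 and Btn1a1). These calls, set beside 1.84% of all genes called lower, rest on unadjusted p-values, and the 17 called markers had adjusted p-values from 0.771 to 0.987 (edgeR). The milk protein gene Wap had 0 counts in 3 libraries and at most 0.0178 CPM in the others, and Ucp1 of brown adipocytes lay between 0.28 and 1.44 CPM. Scaled to the summed epithelial markers, all 10 lipogenesis genes turned positive, from 0.27 for Thrsp to 0.44 for Acaca with a median of 0.38, a scaling that moved the median of all genes to 0.44; 0 of the 10 were called.

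Skeletal muscle markers summed to 279, 810 and 2671 CPM in WT glands and 10472, 10343 and 1798 CPM in mutant glands. That is higher in the mutant gland of pairs 1 and 2 and lower in that of pair 3, the sign of the lipogenesis genes in pairs 2 and 3 but not in pair 1. B cell markers summed to 8.15 to 13.4 CPM in pairs 1 and 2 and to 116 and 540.0 CPM in the WT and mutant gland of pair 3. T cell markers summed to 20.95 to 55.0 CPM in pairs 1 and 2 and to 147 and 389 CPM in pair 3. The part of these cells in the levels of the 10 genes was not tested.

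**Figure D3:**
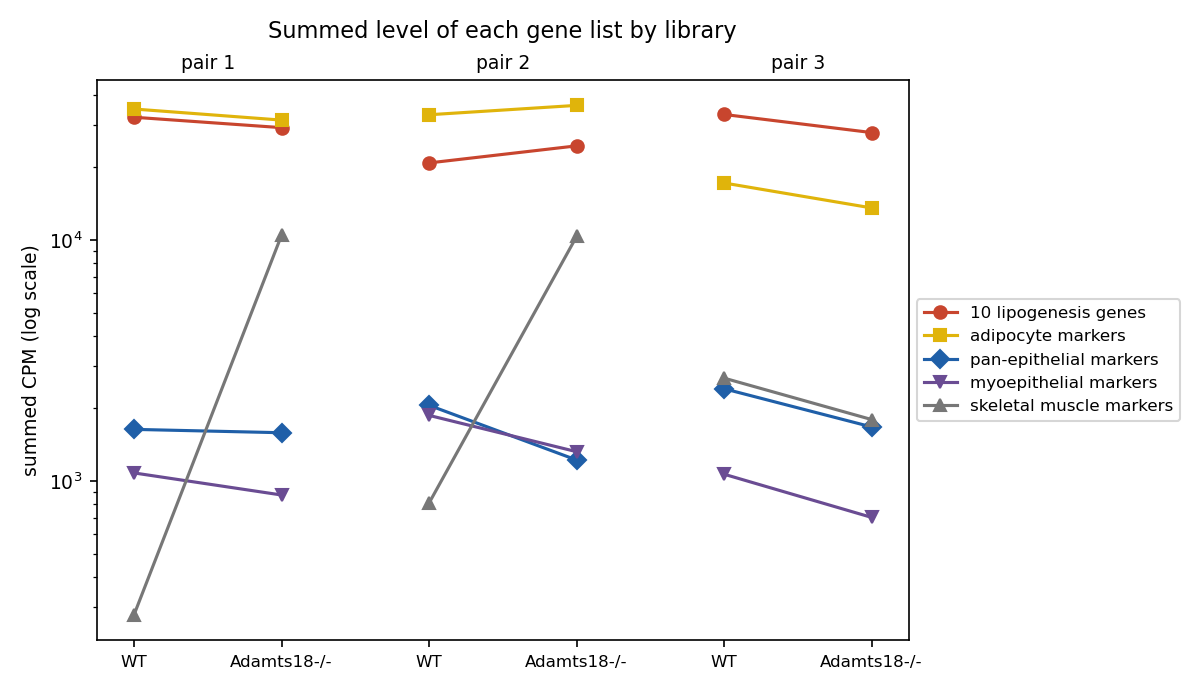
Summed CPM (vertical axis, log scale) of the 10 lipogenesis genes and of 4 marker lists in the WT and Adamts18-/- gland of each pair. Adipocyte markers were lowest in pair 3 whereas the lipogenesis genes were not, and skeletal muscle markers stood at 10472 and 10343 in 2 mutant glands.

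The spread between pairs exceeded the largest contralateral difference for some of the genes only. On the log2 scale the pair means of Me1 spanned 1.53, of Acly 1.27, of Elovl6 1.06, of Scd2 0.83 and of Scd1 0.71, against contralateral differences of at most 0.31 for these genes, and those of Mlxipl spanned 0.36 against 0.34. For Acaca, Fasn, Srebf1 and Thrsp the largest contralateral difference exceeded the spread of the pair means. The test of the host mouse compared the 3 pairs with the genotype in the fit. By edgeR 0 of the 10 genes had an adjusted p under 0.05, where 0.628% of all genes did. At an unadjusted p under 0.05, a threshold taken up after the values were seen, 4 of the 10 passed (Me1, Elovl6, Acly and Scd2), where 27.2% of all genes did, and with 10 genes nothing is read from the distance between these shares. Their unadjusted p-values were 0.000878, 0.00147, 0.00233 and 0.0104, and their adjusted p-values 0.0575, 0.0592, 0.0647 and 0.0966. The same 4 genes had both pair 3 glands above the other 4 libraries, as did 24.2% of all genes tested.

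The 4 genes held different steps of the pathway. Me1 in pair 3 was above the mean of pairs 1 and 2 by 1.35 on the log2 scale, Acly by 1.09, Elovl6 by 0.82 and Scd2 by 0.63. Thrsp and Scd1 were above it by 0.26 and 0.23. The synthesis enzymes Acaca and Fasn had values of -0.064 and -0.11, and the transcription factor genes Srebf1 and Mlxipl both had values of -0.21. The host test gave Fasn an unadjusted p of 0.491, Acaca 0.593, Srebf1 0.348 and Mlxipl 0.0577. As a ratio of counts, Acly was 0.120, 0.119 and 0.275 of Fasn in WT glands of pairs 1, 2 and 3 and 0.124, 0.110 and 0.270 of it in the mutant glands. The ratio was thus nearly alike in the contralateral glands of a host and over 2 times as high in host 3 as in the others.

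The adipocyte markers went the other way. Of the 12, 11 had both pair 3 glands below the other 4 libraries, where 24.1% of all genes did, and their median difference of pair 3 from pairs 1 and 2 was -1.09 on the log2 scale. Their sum in pair 3 was 0.454 times that in pairs 1 and 2, and 0 of the 12 had a host adjusted p under 0.05. The sum of the 10 lipogenesis genes was 1.14 times as high in pair 3. Per 1000 CPM of adipocyte markers, a gene of unchanged CPM would read 2.23 times as high in pair 3 because the divisor is lower there. Against that value 6 of the 10 lipogenesis genes stood above, up to 5.56 times for Me1, and 4 below (Acaca, Fasn, Srebf1 and Mlxipl), down to 1.90 times for Mlxipl. Acly per 1000 adipocyte CPM was 38.6, 28.5 and 156 in WT glands and 40.1, 30.1 and 165 in mutant glands. The 18 epithelial markers were higher in pair 3 by a median of 0.42 and their sum by 1.26 times, but only 2 of the 18 had both pair 3 glands above the other 4 libraries, against 24.2% of all genes. The hosts of the 3 pairs were not labelled by age, cycle stage or feeding, and no cause of the host difference was tested.

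**Figure D4:**
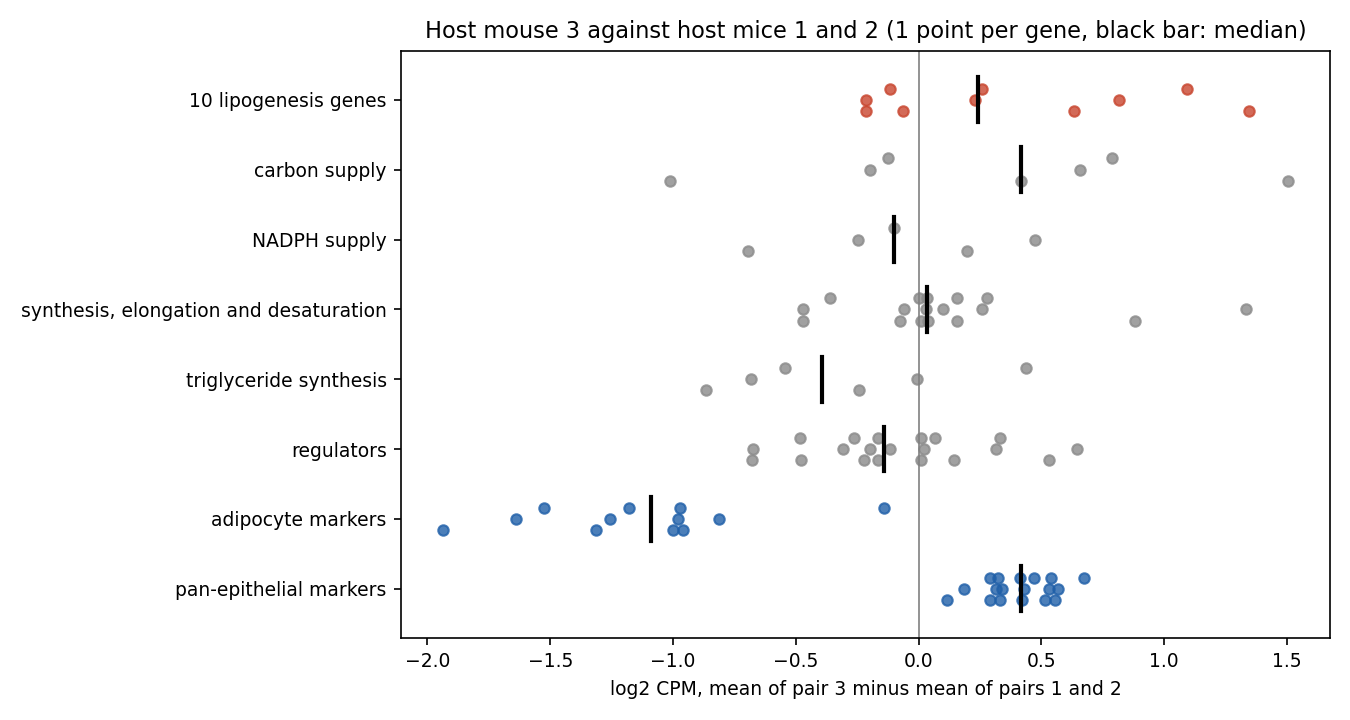
Difference in log2 CPM between the mean of pair 3 and the mean of pairs 1 and 2 (horizontal axis), with 1 point per tested gene of each list and the median as a black bar. The lipogenesis genes spread from -0.21 to 1.35, the adipocyte markers lie below 0 and the pan-epithelial markers above it.

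Among themselves the 10 genes fell into groups that moved together over the 6 libraries. These correlations are descriptions over 6 libraries that share hosts. Acly and Me1 had r = 0.997, Elovl6 and Scd2 0.984, Acly and Elovl6 0.980, and Fasn and Acaca 0.974. Acly and Fasn had r = 0.0051 over the 6 libraries, a value that includes the offset of pair 3, while their contralateral differences had the same sign in each pair (-0.098, 0.20 and -0.26 for Acly and -0.14, 0.31 and -0.24 for Fasn). Scd1 had positive values with both groups, with r = 0.78 with Scd2, 0.75 with Elovl6, 0.61 with Acly and 0.56 with Me1. With Fasn and Acaca it had 0.69 and 0.66. Thrsp had r = 0.80 to 0.86 with Acly, Me1, Elovl6 and Scd2, and 0.27 with both Fasn and Acaca. Mlxipl had r = 0.77 with Srebf1 and negative values with 7 of the other 9 genes, reaching -0.69 with Elovl6. The genes outside the 10 whose log2 CPM was most like the mean profile of the 10 were Tsku (r = 0.982), Edn3 (0.981), Kcnk3 (0.976), Rnh1 (0.976) and Alkbh7 (0.969), over 6 libraries. Of these Edn3 had mean CPM under 1 in both genotypes.

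The wider pathway was read from 5 lists of 56 genes in all, of which 55 passed the filter. Between the genotypes 0 of the 55 were called lower and 0 higher by edgeR, against 1.84% and 1.17% of all genes, and 1 had an unadjusted p under 0.05. That gene, named for this value, was Fads1, a fatty acid desaturase of polyunsaturated chains, with -0.27 (SE 0.090, unadjusted p = 0.0320, adjusted p = 0.987) and a fold change short of the threshold. The median of the 55 was -0.042, against 0.00065 for all genes tested, and 44 were negative, where 49.8% of all genes were.

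For carbon supply, 7 genes were tested. Pyruvate carboxylase (Pcx), the citrate carrier Slc25a1 and citrate synthase (Cs), the most abundant, had fitted genotype changes of -0.063, -0.15 and -0.0069. Between hosts Slc25a1, which exports the citrate that Acly cleaves, was above in pair 3 by 0.79 on the log2 scale. It had 422, 335 and 731 CPM in WT glands and 389, 347 and 563 CPM in mutant glands. The pair 3 differences of Pcx and Cs were -0.20 and -0.12. Pdk4, named for its value, had the lowest of the 7 at -1.01, and their median was 0.42. Both pair 3 glands lay above the other 4 libraries for 4 of the 7 genes and below them for 1. Of all genes tested 0.628% had a host adjusted p under 0.05 (edgeR). Of the 55 genes only Acss2 did (0.0470), and it is named for this value. Acss2 makes cytosolic acetyl-CoA from acetate. It had 183, 97.3 and 419 CPM in WT glands and 167, 107 and 342 CPM in mutant glands, and its pair 3 difference was 1.503 on the log2 scale, beside 1.35 for Me1 and 1.09 for Acly.

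The list for NADPH supply held 5 genes besides Me1, among them neighbours of the NADPH-forming steps such as transketolase, of the pentose phosphate pathway, and cytosolic malate dehydrogenase, which uses NADH. In it transketolase (Tkt), malate dehydrogenase 1 (Mdh1) and phosphogluconate dehydrogenase (Pgd) were the most abundant, with pair 3 differences of 0.20, -0.099 and 0.48. Of 17 tested genes of synthesis, elongation and desaturation, Acsl1, Acacb and Tecr were the most abundant, and their differences were -0.47, 0.0024 and 0.26. The elongase Elovl3, left out by the filter, had at most 0.0978 CPM in pairs 1 and 2 and 1.15 and 0.748 CPM in the WT and mutant glands of pair 3. Of 6 triglyceride synthesis genes, Dgat2, Gpam and Agpat2 led, with differences of -0.0075, -0.68 and 0.44. Among 20 regulators the most abundant were Txnip, Akt2 and Mbtps1, with -0.67, -0.26 and -0.17. Insig1, a target and inhibitor of SREBP processing named after its value was seen, had the highest value of the regulators, 0.64, with 114, 108 and 194 CPM in WT glands and 116, 114 and 160 CPM in mutant glands. Over all 55 genes 13 had both pair 3 glands above the other 4 libraries and 16 had them below, shares close to those of 24.2% and 24.1% over all genes. At an unadjusted host p under 0.05 there were 19 of the 55, against 27.2% of all genes.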

How the data were processed

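RNA-seq of 6 libraries was analysed from the whole-number read counts per gene symbol that the authors deposited, without normalization, 1 column a library. The submitters' processing notes name bcl2fastq 2.18, TopHat2 2.0.11, featureCounts 1.6.2, edgeR and the build mm9. How strand and multiply mapped reads were counted is not given in the sources used here. Genotype, host and side came from the sample titles. 0 columns belonged to other samples.

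The quasi-likelihood test of edgeR 4.0.16 (R 4.3.3) was fitted to TMM-scaled counts after its low-count filter, with the host mouse as a block. Benjamini-Hochberg adjustment ran over the 17345 genes kept. SE was the fitted change over the root of its F, and intervals used the moderated degrees of freedom. CPM used TMM factors, and log2 CPM a prior count of 2. Lengths and promoters were of GRCm38, not mm9. The blocks come from the labels. Deviations from the group means correlated between the glands of pairs 1, 2 and 3 with r = 0.512, 0.505 and 0.639 across genes, and no libraries were near-identical (chi-square per degree of freedom of at least 44.0). The study describes separate donors for the pairs, so p-values measure the spread between pairs that differ in host and in donors.

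The 10 genes, the pathway and marker lists and the call thresholds were chosen with earlier results of these data known. Named were the 10 genes, Adamts18, called genes of the lists, the 3 most abundant of each pathway list, the 2 most and least abundant of the adipocyte and pan-epithelial lists, and the 5 genes most like the mean profile. The value of 1 item chosen by these rules is not reported here. The brown adipocyte, fibroblast, endothelial, macrophage, B cell, T cell, skeletal muscle and Schwann cell lists had 0 called genes. Alternatives were DESeq2 1.42.0, limma-voom (limma 3.58.1), no block, RLE, library size or pan-epithelial scaling, no filter, at least 10 counts in every library, no fold threshold and each pair left out. The fits were tested on simulated data.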

Additional observations from a re-analysis of the deposited data

How the results depend on the processing

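The counts of 0 of the 10 genes called between the genotypes held under each of the 11 other fits and without the fold threshold. Without the replicate block 0 of the 10 were called, the median of the 10 was -0.11 and the change of Adamts18 was -0.90 (unadjusted p = 0.0767), short of the threshold; the block changed no other call between the genotypes among the 10 genes and 55 pathway genes. With 1 pair left out, the median of the 10 ran from -0.19 to 0.049, the change of Adamts18 from -1.04 to -0.72 (short of the threshold without pair 2) and the pathway genes called from 0 to 2 (Fads2 without pair 1, Pdk4 and Prkaa2 without pair 3). Single genes that turned positive on leaving out a pair (Acaca and Fasn without pair 1 or pair 3, the others without pair 3) ran from -0.18 to 0.061 for Acly, -0.15 to 0.088 for Me1, -0.15 to 0.073 for Acaca, -0.19 to 0.091 for Fasn, -0.11 to 0.071 for Elovl6, -0.20 to 0.026 for Scd1, -0.23 to 0.029 for Scd2 and -0.19 to 0.037 for Srebf1. Mlxipl ran from -0.23 to -0.052 and Thrsp from -0.27 to -0.044, with the sign kept. Scaled to the pan-epithelial markers, which were themselves lower in mutant glands, the median of the 10 was 0.38 and the genes stood at 0.39 (Acly), 0.39 (Me1), 0.44 (Acaca), 0.42 (Fasn), 0.41 (Elovl6), 0.37 (Scd1), 0.35 (Scd2), 0.35 (Srebf1), 0.29 (Mlxipl) and 0.27 (Thrsp), with 0 called, 1 pathway gene called (Prkaa2) and Adamts18 at -0.38, short of the threshold. That scaling moved the median of all genes to 0.44, so the 10 stayed slightly below it. DESeq2 called 1 pathway gene (Txnip), and without the fold threshold 1 passed (Fads1). Of 110 single-gene values over the alternatives, 90 kept the sign and the side of the threshold and 20 turned sign.

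The host mouse test depended most on the method. DESeq2 called 5 of the 10 at adjusted p under 0.05 (Acly, Elovl6, Me1, Scd1 and Scd2), where it called 18.9% of all genes, against 0.628% by edgeR. Without the filter on low counts edgeR called 3 (Acly, Elovl6 and Me1) and 4.50% of all genes, and at an unadjusted p under 0.05, an alternative chosen after seeing the data, 4 passed. limma-voom, the other scalings and each pair left out called 0. The cause was not tested.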
